A study of Mus musculus with 2 samples.

Results

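Mature neutrophils were identified among bone marrow cells (BMCs) profiled by Sc-RNA-Seq from 1 WT and 1 Cko mouse, as the cells in which neutrophil granule and S100 genes were abundant, late neutrophil genes were present and hemoglobin was scarce. A cell was taken when *Camp*, *Ngp*, *Ltf*, *Lcn2*, *S100a8* and *S100a9* together made up at least 5% of its UMIs (unique molecular identifiers, each standing for 1 captured RNA molecule), *Retnlg* and *Mmp8* together made up at least 0.1%, and hemoglobin genes (*Hba-*, *Hbb-*) made up less than 1%. In all, 539 of 9933 cells with at least 200 genes met these limits, of 9957 barcodes in both libraries. They were 109 of 6271 WT and 430 of 3662 Cko cells.

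Neutrophils are the short-lived phagocytes that leave the marrow to kill microbes. They arise from dividing progenitors that fill primary granules first (elastase, myeloperoxidase), then secondary granules (lactoferrin, cathelicidin) and last gelatinase granules, and they stop dividing on the way. Mature cells carry the chemokine receptor *Cxcr2*, which helps them to enter the blood, and wait in the marrow as a reserve.

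Both mice were C57BL6/J at postnatal day 21. In the Cko, S1P (site-1 protease, gene *Mbtps1*) was deleted in the osterix lineage, which gives rise to bone-forming and stromal cells, by *Osx-Cre* acting on a floxed exon 2 in both alleles, and the WT mice of the study carried the floxed alleles without Cre. The paper proposes that *Osx-Cre* was also active in hematopoietic cells. A mouse with *Osx-Cre* alone was not among these libraries, so the transgene and the deletion cannot be told apart from these data. The paper states that such mice served as controls in its earlier study. BMCs came from crushed, collagenase-treated limbs whose red cells had been lysed, and the 3′ ends of transcripts were read in droplets.

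With 1 library for each genotype, differences between them could not be held against replicates and no p-value is given. Levels are CPM, the UMIs of a gene scaled to a total of 1000000 UMIs over the cells named, and all intervals are 95% intervals that cover counting error only. The deletion could not be checked in these cells. *Mbtps1* (GRCm38 chr8:119508156-119558735, minus strand) is read at its 3′ end, outside the floxed exon, and whether S1P was lost in these cells was not measured here. *Mbtps1* stood at 24.1 CPM in WT mature neutrophils (13 UMIs) and 30.1 CPM in Cko mature neutrophils (65 UMIs).

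The 5 marker genes were checked against the label (positions in GRCm38). *Retnlg* (chr16:48872621-48874496, plus strand), a resistin-like secreted protein, and *Mmp8* (chr9:7558456-7568485, plus strand), neutrophil collagenase, had been used to choose the cells, so their levels are a description. *Retnlg* stood at 8724 CPM in WT cells and 10971 CPM in Cko cells. *Mmp8* stood at 1251 CPM (1158 to 1349) and 1615 CPM (1561 to 1669). *Ly6g* (chr15:75155240-75159126, plus strand), the surface antigen that marks mouse neutrophils, stood at 848 CPM (772 to 929) in WT cells and 1097 CPM (1053 to 1142) in Cko cells. It was seen in 85.3% and 90.9% of the mature cells, against 2.30% and 2.56% of cells with B cell markers. *Cxcr2* (chr1:74153989-74161246, plus strand) stood at 167 CPM (134 to 205) and 149.5 CPM (134 to 167), and was seen in 52.3% and 46.3% of the cells. *Il1b* (chr2:129364570-129371139, minus strand), an inflammatory cytokine, was scarce. It had 17 UMIs in the WT (31.5 CPM, 18.4 to 50.5) and 28 UMIs in the Cko (12.96 CPM, 8.6 to 18.7), and was seen in 6.42% and 3.26% of the cells. Over all members, the label therefore rests on *Ly6g* and *Cxcr2* beside the genes that chose the cells, with little from *Il1b*. In cells with a granule share of 30% or more, described later, *Ly6g* stood at 1298 CPM (1177 to 1428) and 1231 CPM (1181 to 1282), so the order of the genotypes turned. Below 30%, *Ly6g* stood at 172 CPM in WT cells and 277 CPM in Cko cells, against 206 and 271 CPM in immature neutrophils. *Cxcr2* stood at 135 and 162 CPM below 30%, against 21.5 and 34.0 CPM in immature neutrophils. In the cells below 30% the label therefore has little from *Ly6g*.

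**Figure D1:**
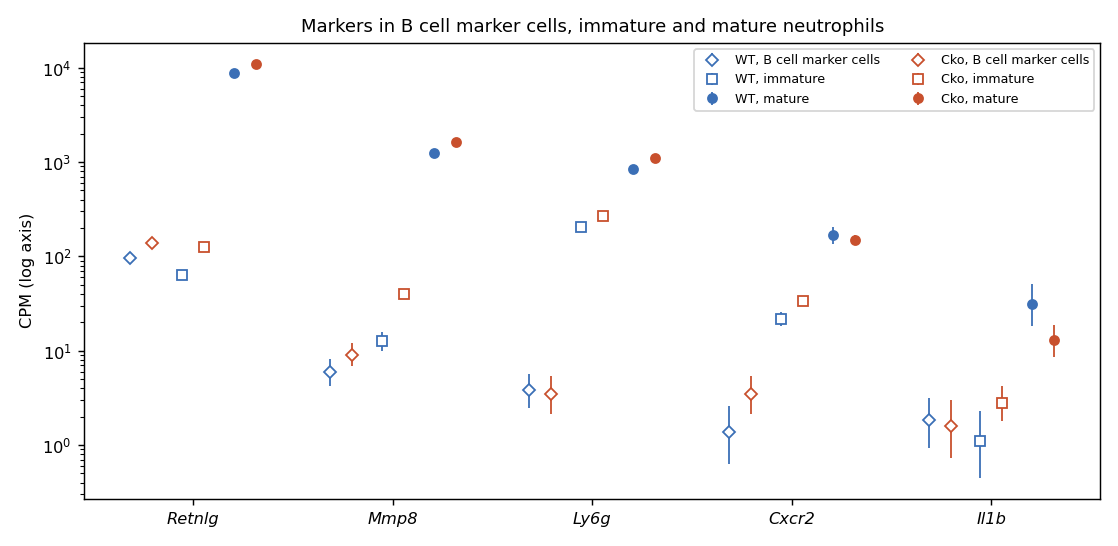
Level of each marker (CPM, log axis) in cells with B cell markers (diamonds), immature neutrophils (squares) and mature neutrophils (circles), WT in blue and Cko in red, 1 library each. Bars are counting intervals, and every marker is highest in the mature cells of both libraries, with *Il1b* lowest of the 5 at 31.5 and 12.96 CPM.

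The promoter sequences of the 2 late genes that chose the cells are shown because these genes set the limit between mature and immature cells. They are RefSeq sequence of GRCm38.p6 from the bases before the gene start, 5′ to 3′ on the gene's strand. Capitals mark exact matches, on either strand, to a C/EBP core (TTGCNNAA, or TTNNGCAA read the other way) or an ETS/PU.1 core (GGAAGT, or ACTTCC read the other way), the letters bound by the factors C/EBP and PU.1 that drive neutrophil genes.
Retnlg, chr16:48872358-48872607, strand +: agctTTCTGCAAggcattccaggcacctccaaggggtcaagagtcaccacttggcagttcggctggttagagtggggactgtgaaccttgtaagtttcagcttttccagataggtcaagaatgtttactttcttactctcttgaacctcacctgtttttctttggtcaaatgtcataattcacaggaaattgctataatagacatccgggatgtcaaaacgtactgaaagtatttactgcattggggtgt
Mmp8, chr9:7558179-7558428, strand +: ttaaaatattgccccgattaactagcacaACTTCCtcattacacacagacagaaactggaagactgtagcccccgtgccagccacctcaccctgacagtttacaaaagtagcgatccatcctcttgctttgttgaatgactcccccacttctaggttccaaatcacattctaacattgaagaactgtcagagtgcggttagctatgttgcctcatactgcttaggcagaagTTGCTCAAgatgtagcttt
*Retnlg* held 1 C/EBP core and *Mmp8* held 1 C/EBP core and 1 ETS core. Of 32536 promoter windows of mouse genes, 9.57% held the C/EBP core and 19.8% the ETS core. A match of letters is a description and no binding was measured.

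Mature neutrophils made up 1.74% (1.43 to 2.09) of WT cells and 11.7% (10.7 to 12.8) of Cko cells, a share 6.76 times as high in the Cko (5.46 to 8.41). The size of this ratio depended on what the cells were counted against. Of cells with hemoglobin under 1%, the mature cells were 3.49% of 3126 WT cells and 13.5% of 3177 Cko cells, a ratio of 3.88 (3.14 to 4.83). Of cells past the granule limit with hemoglobin under 1%, they were 12.3% of 888 and 31.0% of 1385, a ratio of 2.53 (2.05 to 3.15). The immature neutrophils, which passed the same granule and hemoglobin limits but not the *Retnlg* and *Mmp8* limit, were 12.4% of WT cells (779) and 26.1% of Cko cells (955), a ratio of 2.10 (1.91 to 2.31). Shares of cells in 1 mouse each cannot separate more neutrophils from fewer other cells, and red cell lysis can set the share of erythroid cells.

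The hemoglobin limit did not act on both libraries alike. Of cells past the other limits, 40 of 149 in the WT (26.8%) and 8 of 438 in the Cko (1.83%) were left out by it. The lowest of the cells left out held 1.98% hemoglobin in WT cells and 1.71% in Cko cells, and the highest of those kept held 0.867% and 0.908%. Hemoglobin UMIs were present at a low share in cells of other types as well, with a median of 0.298% in WT cells with B cell markers and 0.0776% in those of the Cko. The medians of the mature neutrophils were 0.412% and 0.111%.

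The limit on *Retnlg* and *Mmp8* cut through a continuous range. The nearest cell above it held 0.101% in both libraries, and the nearest below 0.0954% in WT cells and 0.1000% in Cko cells. Within 1.5 times the limit, 12 WT cells lay above and 13 below, and 46 Cko cells lay above and 62 below. The granule limit fell where cells were few, with 5.20% and 4.95% on its sides in WT cells and 5.24% and 4.83% in Cko cells. The medians of the members were far from both limits, at 47.8% and 48.1% of UMIs for the granule genes and 0.727% and 0.680% for *Retnlg* and *Mmp8*.

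**Figure D2:**
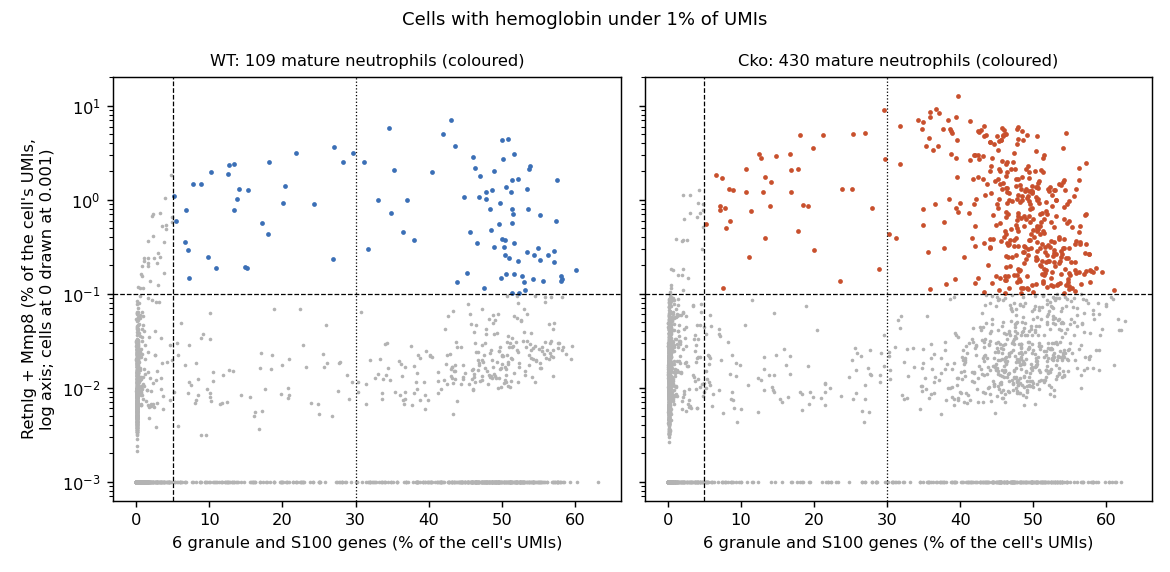
Each point is a cell with hemoglobin under 1% of UMIs, placed by the share of its UMIs in the 6 granule and S100 genes (x axis, %) and in *Retnlg* and *Mmp8* (y axis, %, log axis, cells at 0 drawn at the bottom). Coloured points passed the dashed limits of 5% and 0.1%, 109 WT and 430 Cko cells, and the dotted line at 30% divides the dense cloud on the right from the scattered cells on the left.

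The mature cells held few molecules. Their median was 3747 UMIs in WT cells and 4300.5 in Cko cells, against 7119 and 7992 in the immature cells, and their median number of genes was 901 and 879 against 1418 and 1477. The shallowest members, at 3035 and 3234 UMIs, stood close to the shallowest barcode of each library, at 2924 and 3162 UMIs. Under 3500 UMIs lay 38 of 109 WT members (34.9%) and 60 of 430 Cko members (14.0%), so the WT members crowded closer to this lower end. How many mature neutrophils fell below it was not measured, and its part in the ratio of shares was not tested. The members summed to 538947 UMIs in WT cells and 2160244 in Cko cells. The libraries shared 28 barcodes, of which 4 were Cko members and none WT members, and Scrublet called 9 Cko members and 0 WT members as doublets.

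A granule share of 30% divided the members into a dense group and a scattered one. This division was added after the data were seen. At or above 30% lay 78 of 109 WT cells (71.6%) and 387 of 430 Cko cells (90.0%). The 31 WT cells below it held 39.95% of the UMIs of all WT members, and the 43 Cko cells 14.0%. Markers of other cells were concentrated in the cells below 30%. At least 3 B cell markers were present in 13 of 31 WT cells and 16 of 43 Cko cells below 30%, and in 10 of 78 and 6 of 387 above. At least 3 monocyte markers were present in 8 of 31 and 13 of 43 below, and in 0 of 78 and 1 of 387 above. Over the members, the summed B cell markers stood at 1761 CPM in WT cells and 714 CPM in Cko cells, and the monocyte markers at 2212 and 1960 CPM. Of the T/NK cell markers *Cd3e*, *Cd3g*, *Ccl5*, *Gzma*, *Trbc2* and *Thy1* were at 0 in the WT members. Gene lists and the main genes are therefore given for all members and for those with a granule share of 30% or more (the granule-rich cells). What the other cell types' transcripts contributed to each difference was not tested.

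Mature and immature neutrophils were compared within each library, where the genotype and the library do not differ. The late genes are a description here, because the cells were chosen from the same counts. Of 3908 genes, 189 were at least 2-fold higher and 265 at least 2-fold lower in the mature cells of the WT, and 152 and 758 in those of the Cko, and 120 and 180 did so in both. The median log2 ratio of all these genes was -0.08 in WT cells and -0.37 in Cko cells, and the values that follow are read against it.

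Genes of the last steps were among those with the highest ratios in mature cells. *Mmp9*, gelatinase B of the gelatinase granules, was 3.50 higher on the log2 scale in WT cells and 3.20 in Cko cells, at 449 and 755 CPM in mature cells. The calcium-binding *S100a6* was 3.57 and 2.93 higher. The chemokine *Ccl6* was 4.25 and 3.05 higher, and the interferon-induced *Ifi27l2a* 2.96 and 2.38. *Timp2*, an inhibitor of metalloproteinases, was 2.77 and 3.004 higher. *Slfn1* (3.14 and 2.84), the protease *Asprv1* (2.69 and 2.66) and *Sh3glb1* (2.66 and 2.45) completed the genes with the highest ratio in both libraries, beside *Retnlg* and *Mmp8*. *Cxcr2*, which was not used by the rule, was 2.96 and 2.14 higher, and *Ly6g* 2.04 and 2.02. Over all members, the chemokine receptor and the surface antigen therefore stood at least 4-fold higher than in immature cells in both genotypes. B cell markers were higher as well, 7 of 8 in each library by at least 2-fold, beside 189 and 152 of all 3908 genes. Their median log2 ratios were 2.09 in WT cells and 1.37 in Cko cells. Of the 91 WT UMIs of *Ccl6* in mature cells, 36 lay in granule-rich cells.

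The lowest ratios were those of *Fcnb*, *Tuba8*, *Plk1*, *Mgl2*, *Aunip*, *Prss57*, *Gpx3*, *Ska1*, *Cdc25a* and *1700020L24Rik*. Several rest on few UMIs in WT and Cko mature cells, such as *Mgl2* (3 and 3), *Aunip* (3 and 6), *Tuba8* (5 and 9) and *Gpx3* (8 and 14). *Fcnb*, an early secondary granule lectin, had a log2 ratio of -2.66 in the WT library and -2.65 in the Cko library. The mitotic kinase *Plk1* had log2 ratios of -2.24 and -2.44, from 8 and 28 UMIs in mature cells, and *Prss57*, a serine protease of primary granules, -1.92 and -3.23. By list, 7 of 24 cell cycle genes were at least 2-fold lower in WT mature cells and 23 of 24 in Cko mature cells, with none higher. Of all 3908 genes, 265 were lower in the WT and 758 in the Cko, so the Cko counts stand beside a larger share. Of 8 primary granule genes, 5 and 7 were lower. In contrast, 6 and 7 of 13 genes of marrow retention and migration were higher and none lower, as were 5 and 5 of 8 immediate early genes and 4 and 5 of 9 interferon-stimulated genes. Beside them, 189 and 152 of all 3908 genes were higher. *Mki67*, the proliferation antigen, was still seen in 18.3% of WT and 6.51% of Cko mature cells after each cell was thinned to 3000 UMIs, against 39.7% and 37.0% of immature cells. In WT granule-rich cells it was seen in 14.1%, and in those of the Cko in 5.94%. The difference in *Mki67* between the genotypes in the mature cells was within 2-fold in the granule-rich cells (log2 Cko/WT -0.86) and beyond it in all members (-1.40).

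Cko and WT mature neutrophils were then compared gene by gene. Of 1896 genes with at least 100 UMIs over both libraries, 36 were at least 2-fold higher in the Cko (1.9%) and 218 at least 2-fold lower (11.5%), with a median log2 Cko/WT of -0.17. In the granule-rich cells 22 of 1415 genes were higher (1.55%) and 18 were lower (1.27%), with a median of 0.03. The minimum of 100 UMIs was applied again there, so some of the 218 lower genes were left out for too few UMIs. *Car2* was left out in this way, with 40 and 31 UMIs, though its log2 Cko/WT there was -2.89. In both sets of cells 14 genes were higher and 18 were lower. With totals that left out granule, late, *Stfa*, hemoglobin and mitochondrial genes, 69 genes were higher and 125 lower over all members, so the split of higher against lower depended on the scaling.

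**Figure D3:**
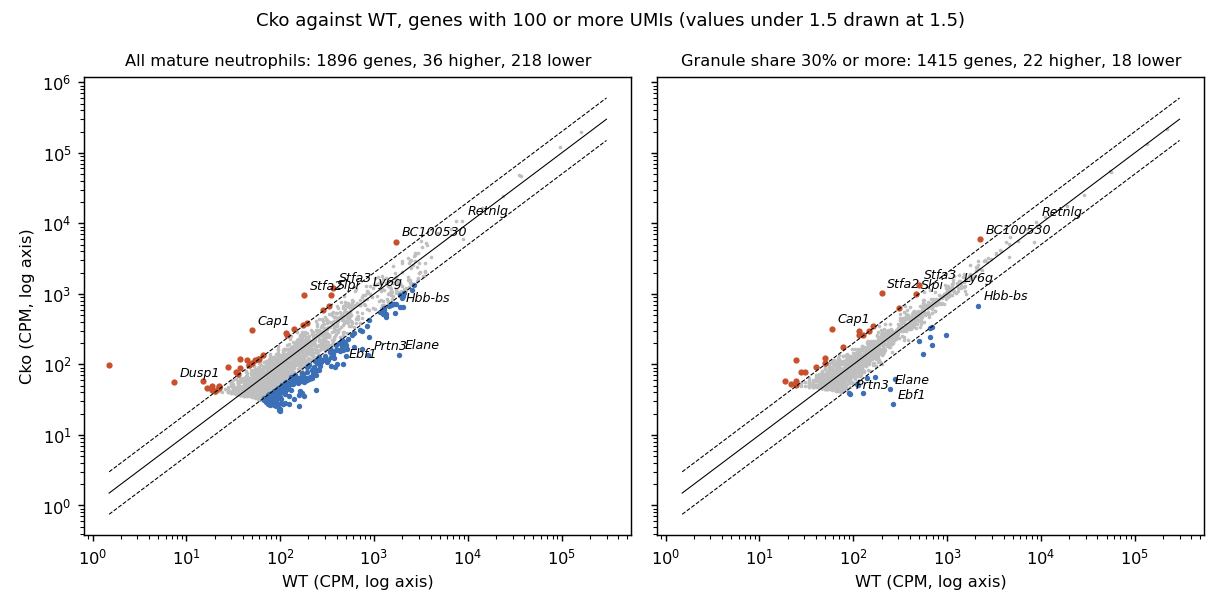
Level of each gene in Cko (y axis) against WT (x axis) mature neutrophils, in CPM on log axes, 1 library each, for all members (left) and for the granule-rich cells (right). Dashed lines mark 2-fold, red points lie above and blue points below them, and the 218 genes below the lower line on the left became 18 on the right.

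*Cap1* and members of the *Stfa* family led the genes higher in the Cko in both sets of cells. *Cap1* (chr4:122859047-122886056, minus strand), which binds actin monomers and recycles actin filaments, had 27 UMIs in 22 of 109 WT cells and 666 UMIs in 325 of 430 Cko cells. Its level was 50.1 CPM in WT cells and 308 CPM in Cko cells, 6.15-fold higher (4.19 to 9.41), and 5.48-fold higher in the granule-rich cells (3.48 to 9.17). It was also higher outside the mature cells, by 2.40 on the log2 scale in immature neutrophils and 3.12 in all other cells. After thinning it was seen in 14.7% of WT and 61.2% of Cko mature cells, and in 6.44% and 27.3% of cells with B cell markers. *Cap1* was thus higher in every class of Cko cells that was compared. Of 27 genes of actin and motility it was the only one past 2-fold, beside 1.9% of all genes higher, and the median of the list was 0.19 (0.07 in the granule-rich cells).

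The other 8 genes named among the 12 highest ratios, beside the *Stfa* genes and *Cap1*, had diverse roles. *Slpi* (chr2:164354070-164389095, minus strand), an inhibitor of neutrophil elastase, stood at 349 CPM in the WT (82 of 109 cells) and 974 CPM in the Cko (392 of 430 cells), 2.79-fold higher (2.40 to 3.26) and 2.17-fold higher in the granule-rich cells (1.83 to 2.58). *Cyp4f18*, an enzyme that inactivates leukotriene B4, had 15 and 198 UMIs and a log2 Cko/WT of 1.72 (1.34 in granule-rich cells). *Cd3d*, a component of the T cell receptor complex, had 20 UMIs in 20 WT cells and 258 UMIs in 164 Cko cells, a log2 Cko/WT of 1.69, and 1.32 in granule-rich cells. Its partners *Cd3e* and *Cd3g* were at 0 in WT members, and *Cd3d* was also 2.81 higher on the log2 scale in all other cells. *Dusp1*, a phosphatase of stress kinases, had 4 UMIs in WT cells and 122 in Cko cells (log2 Cko/WT 2.93), so its ratio rests on few molecules, 7.61 with an interval from 2.90 to 28.4. Its log2 Cko/WT in granule-rich cells was 3.06, from 2 and 96 UMIs. Among 9 immediate early genes it alone passed 2-fold, beside 1.9% of all genes higher, and the list's median was 0.04. *Orm1*, an acute-phase protein, had 24 and 253 UMIs (1.40, and 0.93 in granule-rich cells). *Ttc32* (1.47, and 1.82 in granule-rich cells) and *Usp5* (1.42 and 1.27) had 9 and 10 WT UMIs.

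*Wfdc17*, a relative of *Slpi*, had 8 UMIs in WT cells and 125 in Cko cells (log2 Cko/WT 1.96), but 4 Cko cells held at least 50% of its UMIs and 31 of the 125 UMIs lay in granule-rich cells. *Ccl5*, a T and NK cell chemokine, was at 0 in WT members and had 210 UMIs in the Cko, 84.8% of them in cells below 30%. The T/NK cell markers did not all go this way, as 2 of the 3 tested were higher in the Cko and 1 was lower. The lower one was *Nkg7* (log2 Cko/WT -2.35). In cells below 30% it stood at 423 CPM in the WT and 182 CPM in the Cko. In granule-rich cells it stood at 18.5 and 11.3 CPM, from 6 and 21 UMIs. The urokinase receptor *Plaur* had 62 and 601 UMIs and was 1.27 higher on the log2 scale, and 1.02 in granule-rich cells. *Id1*, an inhibitor of DNA-binding regulators, had 18 and 166 UMIs, 1.20 and 1.49.

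The *Stfa* genes encode stefins A, small cytoplasmic inhibitors of cysteine cathepsins, and lie in a cluster on chromosome 16. *Stfa2l1* (chr16:36156811-36161953, plus strand), *Gm5483* (chr16:36184212-36188111, plus strand), *Stfa1* (chr16:36276951-36285373, plus strand), *BC100530* (chr16:36359382-36367748, minus strand), *Stfa2* (chr16:36403992-36408457, minus strand) and *Stfa3* (chr16:36450537-36455392, minus strand) were counted in both libraries. The sum of the 8 listed members was 4377 CPM (4202 to 4557) in WT mature neutrophils and 11209 CPM (11068 to 11351) in Cko mature neutrophils, 2.56-fold higher (2.45 to 2.67). In the granule-rich cells it was 5404 and 11981 CPM, 2.22-fold higher (2.11 to 2.33). In the immature neutrophils it was 3556 and 10229 CPM, 2.88-fold higher (2.83 to 2.92), so that the difference was not particular to the mature cells. The sum was also higher among Cko cells that were called neither mature nor immature neutrophils. In cells with B cell markers the sum was 36.6 and 129 CPM, 3.51-fold higher (3.03 to 4.08). There 1 Cko cell held 165 of 734 family UMIs. In all cells called neither it was 83.3 and 280 CPM, 3.36-fold higher (3.23 to 3.49). That set kept cells past the granule limit with hemoglobin of 1% or more, and its granule shares reached 49.9% (WT) and 53.6% (Cko). Single cells there held 370 of 4121 WT and 856 of 6639 Cko family UMIs. Whether the family differed outside neutrophils was therefore not tested.

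The members did not move by the same amount. *Stfa2* had 97 UMIs in 10 WT cells and 2089 UMIs in 114 Cko cells, or 180 and 967 CPM, 5.37-fold higher (4.38 to 6.66), and 5.10-fold in granule-rich cells. *Stfa3* had 198 UMIs in 12 WT cells and 2661 in 128 Cko cells, or 367 and 1232 CPM, 3.35-fold higher (2.90 to 3.89), and 2.68-fold in granule-rich cells. *BC100530*, the most abundant member, stood at 1718 and 5459 CPM, 3.18-fold higher (2.97 to 3.40) and 2.66-fold in granule-rich cells, and *Stfa2l1* at 284 and 595 CPM, 2.10-fold higher (1.77 to 2.496). *Gm5483* stood at 649 and 1163 CPM and *Stfa1* at 1100 and 1718 CPM, both short of 2-fold, as was *2010005H15Rik* at 68.7 and 69.9 CPM. The latter values rest on single cells, since 1 WT cell held 33 of the 37 WT UMIs of *2010005H15Rik*. Without the top cell of each library (added after seeing the data) *2010005H15Rik* stood at 7.47 and 51.03 CPM, *Gm5483* at 431 and 1098 CPM (log2 Cko/WT 1.35) and *Stfa1* at 824 and 1602 CPM (0.96). *Gm5416* had 5 and 10 UMIs. Of 7 members with at least 100 UMIs, 4 were past 2-fold and none was lower, beside 1.9% of all genes higher, and in the granule-rich cells 3 of 7, beside 1.55%. *Stfa2l1* was 0.65 higher on the log2 scale there. In mature compared with immature cells of the same library, *Stfa2* was 1.91 higher on the log2 scale in WT cells and 1.44 in Cko cells, and *Stfa3* 1.71 and 1.10, whereas *BC100530* was at -0.11 and 0.01. Reads of 1 member can be counted to another where their ends are identical. Of 98-base windows of the last 500 bases, 11.8% of *BC100530*, 6.41% of *Stfa1* and 5.97% of *Gm5483* were identical in another member, and 0% of *Stfa2*, *Stfa2l1* and *Stfa3*.

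The RefSeq promoters of *Stfa2*, *Stfa2l1* and *Stfa3*, which were past 2-fold over all members by unequal amounts, are shown so that their sequences can be compared, with capitals as above.
Stfa2, chr16:36408458-36408613, strand minus: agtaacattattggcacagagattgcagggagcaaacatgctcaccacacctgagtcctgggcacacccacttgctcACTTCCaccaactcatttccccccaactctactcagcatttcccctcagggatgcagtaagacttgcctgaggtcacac
Stfa2l1, chr16:36156561-36156810, strand +: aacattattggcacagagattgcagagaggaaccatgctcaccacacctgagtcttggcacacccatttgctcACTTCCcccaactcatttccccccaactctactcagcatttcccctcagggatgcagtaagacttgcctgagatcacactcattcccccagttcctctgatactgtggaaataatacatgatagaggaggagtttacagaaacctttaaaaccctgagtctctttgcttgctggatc
Stfa3, chr16:36455393-36455642, strand minus: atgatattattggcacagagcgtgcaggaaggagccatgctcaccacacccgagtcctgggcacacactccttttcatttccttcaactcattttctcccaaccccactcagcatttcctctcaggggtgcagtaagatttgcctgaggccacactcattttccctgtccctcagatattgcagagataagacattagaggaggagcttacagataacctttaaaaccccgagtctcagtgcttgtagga
*Stfa2* is given in 156 bases, as 94 bases of its window were left out because they lay inside the transcript of the annotation used. *Stfa2* and *Stfa2l1* held 1 ETS core each, and *Stfa3* held neither core in this window. Aligned over 250 bases, *Stfa2* and *Stfa2l1* were identical at 89.4% of positions and *Stfa2* and *Stfa3* at 80.2%, against 48.1% for *Retnlg* and *Mmp8*. The promoter of *Stfa2l1*, the member with the smallest difference of the 3, was the one most like that of *Stfa2*, the member with the greatest.

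The family's UMIs lay in few cells. In the WT 3 of 109 mature cells held at least 50% of them, and the 4 cells with the most held 631, 369, 367 and 328 of 2359 UMIs. In the Cko 24 of 430 cells held at least 50% and the top cell held 912 of 24214 UMIs (3.77%). The top WT cell held 26.7% of all, and in the granule-rich WT cells 36.1%. Without the top cell of each library the levels were 3227 and 10815 CPM. The number of cells carrying the family was a measure less open to single cells. At least 10 family UMIs were present in 25 of 109 WT cells (22.9%) and 177 of 430 Cko cells (41.2%), a ratio of 1.79 (1.18 to 2.85). The shares were 21.8% and 38.5% in the granule-rich cells, a ratio of 1.77 (1.07 to 3.11), and 23.4% and 46.8% in immature cells, a ratio of 2.003 (1.68 to 2.39). In the mature cells with at least 10 family UMIs the median was 27 UMIs in WT cells and 57 in Cko cells. The share of carrying cells and their median were both higher in the Cko library. After thinning, at least 1 family UMI was present in 51.4% (41.6 to 61.1) of WT and 73.0% (68.6 to 77.2) of Cko mature cells, against 5.52% and 19.6% of cells with B cell markers. The part of free RNA in these shares was not tested.

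**Figure D4:**
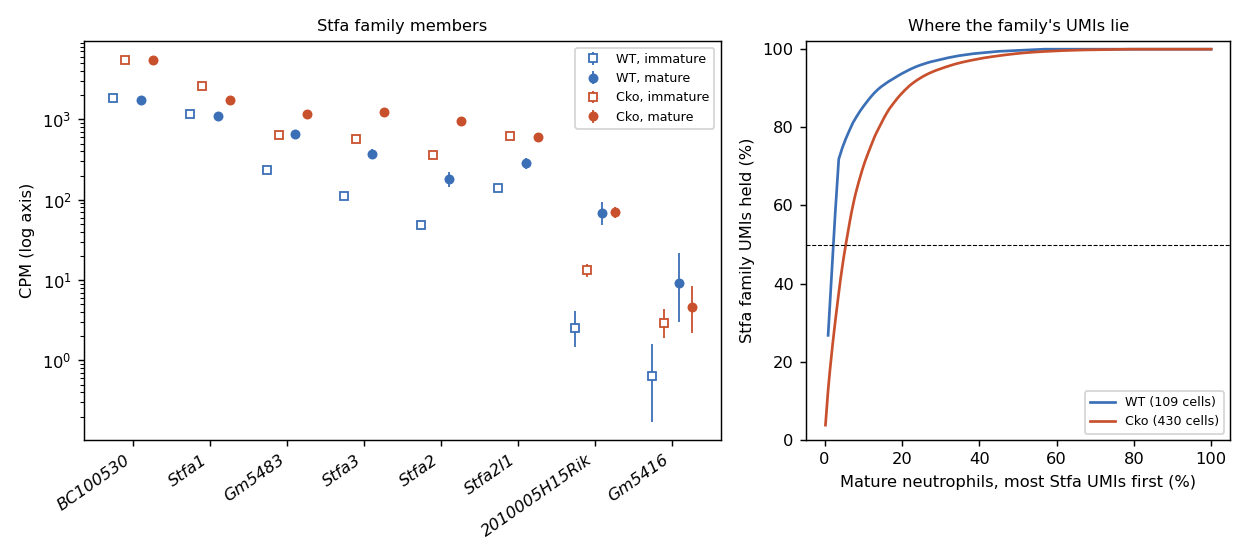
Left, level of each *Stfa* family member (CPM, log axis) in immature (open squares) and mature (filled circles) neutrophils of the WT (blue) and Cko (red), with counting intervals, 1 library each. Right, share of the family's UMIs (y axis, %) held by the mature cells ranked from the most UMIs down (x axis, % of cells), where the curve of 109 WT cells passes 50% at 3 cells and that of 430 Cko cells at 24 cells.

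The difference was read again at 3 levels of secondary granule content. Cells were put in 3 bins by the share of *Ltf*, *Camp* and *Ngp* in their UMIs, with limits at 8.88% and 12.5%, and the same limits in both libraries. In the lowest bin (47 and 133 cells) its members summed to 2743 CPM in WT cells and 16897 CPM in Cko cells, 6.16-fold higher. In the highest bin (35 and 145 cells) it stood at 1141 and 6981 CPM, 6.12-fold higher. In the middle bin (27 and 152 cells) it stood at 12344 and 10694 CPM, a ratio of 0.866. The middle bin held 1443 of the 2359 WT UMIs of the family, and its ratio was below 1 for *Gm5483* (0.596), *Stfa1* (0.622) and *Stfa2l1* (0.683), and 0.943 for *Stfa3*, whose interval of 0.793 to 1.13 spans 1. For *Stfa2* the ratio stayed above 1 in each bin, at 12.4, 1.82 and 11.8. *Cap1* was higher in each bin, at 8.13, 4.09 and 5.83, and *Slpi* at 5.00, 2.05 and 1.76. The family's ratio was therefore not the same in each bin. The 4 WT cells with the most family UMIs held 631, 369, 367 and 328. The highest bin held 172 WT UMIs of the family and the lowest 744, so most UMIs of these 4 cells lay in the middle bin. Its ratio thus rests on a few of its 27 WT cells, and a dependence on granule content was not tested.

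The 12 genes with the lowest ratios each had fewer than 50% of their WT UMIs in granule-rich cells, from 40 of 85 for *Car2* to 30 of 462 for *Prtn3*. *Elane*, neutrophil elastase of the primary granules, had 988 UMIs in 24 WT cells and 296 in 78 Cko cells, a log2 Cko/WT of -3.74. In the WT 92.0% and in the Cko 72.3% of these UMIs lay in cells below 30%. In the granule-rich cells 1 WT cell held 67 of 79 UMIs. Without the top cell of each library the level there was 38.4 CPM in WT cells and 38.5 in Cko cells. *Prtn3*, proteinase 3, had 462 and 292 UMIs (log2 Cko/WT -2.66, and -1.30 in granule-rich cells), and in these cells 1 WT cell held 24 of 30 UMIs. *Ebf1*, a regulator of early B cells, had 252 and 221 UMIs (-2.19, and -3.26 in granule-rich cells) and 66.3% and 76.9% of them lay in cells below 30%. *Vpreb3*, of the pre-B cell receptor, had a log2 Cko/WT of -1.99, and -2.70 in granule-rich cells. *Car2* (-2.61), red cell carbonic anhydrase, and *Blvrb* (-2.11), an enzyme of red cells, joined *C1qbp* (-2.20), *AI662270* (-2.12), *Set* (-2.12), *Nucks1* (-2.11), *Ezh2* (-2.09) and the chaperone *Pdia6* (-1.96). In granule-rich cells *Pdia6* alone of the 12 was within 2-fold (-0.74). *Car2* was lower there as well (-2.89), as were *C1qbp* (-2.16), *AI662270* (-1.48), *Blvrb* (-1.48), *Nucks1* (-1.34), *Ezh2* (-1.05) and *Set* (-1.01). These values rest on few UMIs, such as 7 and 9 for *C1qbp*.

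Lists of genes of neutrophil function had few members past 2-fold. The shares of all genes to set beside them are 1.9% higher and 11.5% lower over all members, and 1.55% and 1.27% in granule-rich cells. Of 12 secondary granule genes 1 was higher, *Orm1*, and none lower (median 0.51, and 0.17 with 0 past 2-fold in the granule-rich cells). *Ltf*, lactoferrin, stood at 4795 and 7275 CPM and *Camp* at 37072 and 47449 CPM, both used to choose the cells. Of 14 surface receptors none was past 2-fold (median 0.46 and 0.20). *Fpr2*, a formyl peptide receptor, stood at 239 and 413 CPM and *Ltb4r1*, the leukotriene B4 receptor, at 328 and 521 CPM. None of 12 genes of marrow retention and migration, 7 of the NADPH oxidase, 9 interferon-stimulated genes, 3 of gelatinase granules, 4 of cytokines, 4 of survival or 14 of glycolysis was past 2-fold, with medians between 0.10 and 0.31. In the S100 and annexin list 1 of 10 was past 2-fold, *S100a10* (lower, and 0.18 in granule-rich cells). *S100a8* and *S100a9*, the subunits of calprotectin, had log2 Cko/WT of 0.31 each and -0.01 and -0.03 in granule-rich cells. Of the 7 other protease inhibitors *Slpi* and *Wfdc17* were higher, and of 4 cysteine cathepsins, the targets of stefins, *Ctsz* was lower (-1.11, and -0.90 in granule-rich cells). Of 8 neutrophil transcription factors *Foxp1* was lower (-1.56), while *Cebpe* stood at 527 and 753 CPM and *Spi1* at 462 and 641 CPM. The target genes of SREBP, a factor that S1P cleaves, had no member with 100 UMIs.

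**Figure D5:**
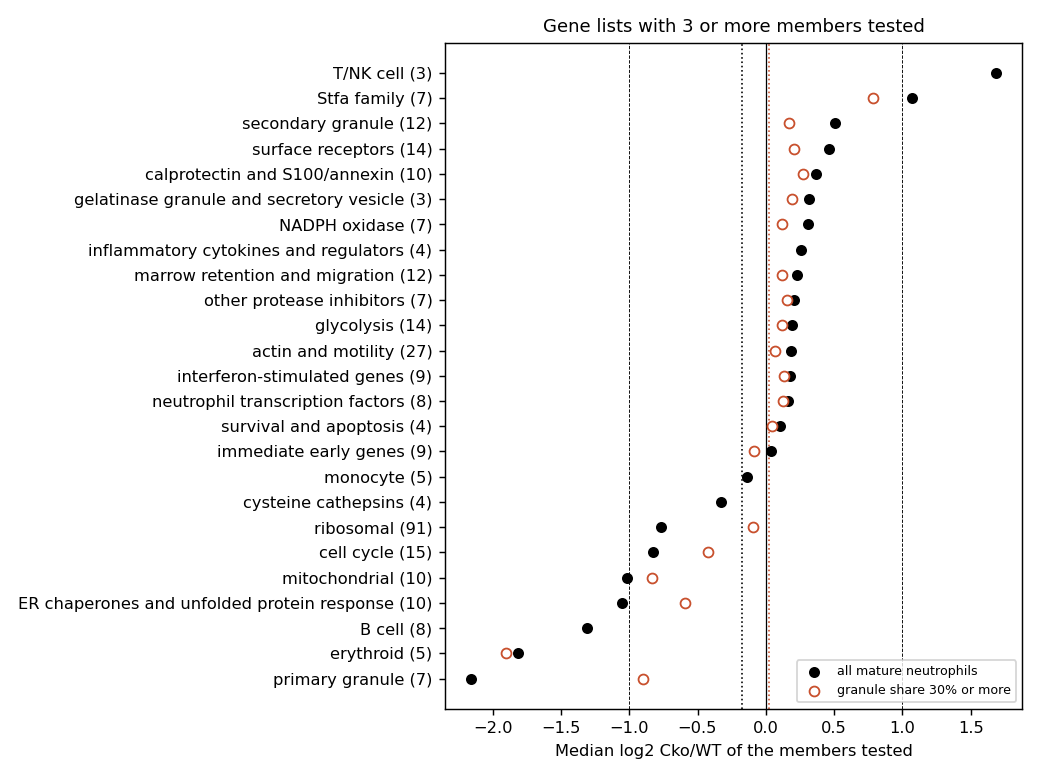
Median log2 Cko/WT (x axis) of the members of each gene list with at least 100 UMIs (number in brackets), for all mature neutrophils (black) and granule-rich cells (open red, where at least 3 members remained). Dotted lines mark the medians of all genes (-0.17 and 0.03) and dashed lines 2-fold, while the *Stfa* family lies at 1.07 and 0.79, and the erythroid (-1.82 and -1.90), primary granule (-2.16 and -0.90) and mitochondrial (-1.02 and -0.83) lists lie well below the medians of all genes in both sets. In granule-rich cells the primary granule genes past 2-fold, *Elane* and *Prtn3*, had most of their WT UMIs in 1 cell.

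The primary granule, cell cycle, ER chaperone and ribosomal lists were lower in the Cko over all members and lay closer to 0 in the granule-rich cells. Of 7 primary granule genes, 6 were lower (median -2.16), beside 11.5% of all genes, and 2 of 4 in granule-rich cells (median -0.90), beside 1.27%. *Mpo*, myeloperoxidase, stood at 739 and 166 CPM, and 96.0% of its WT UMIs lay in cells below 30%. Of 15 cell cycle genes 4 were lower (median -0.83), and 0 of 12 in granule-rich cells (-0.43). Of 10 ER chaperones 6 were lower, *Hsp90b1*, *Calr*, *Hspa5*, *Manf*, *Pdia6* and *Canx* (median -1.05), and 0 of 3 in granule-rich cells. Of 91 ribosomal genes 20 were lower and 1 higher (median -0.77), and in granule-rich cells 0 of 86 were lower and 2 higher (-0.09). The ribosomal sum was 137255 and 82460 CPM over all members and 55803 and 54210 CPM in the granule-rich cells. Of 8 B cell markers 5 were lower (median -1.31), and 1 of 2 in granule-rich cells (-1.94), further from 0. Of 5 monocyte markers 1 was lower.

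The erythroid and mitochondrial lists were lower in both sets. All 5 erythroid genes tested were lower (median -1.82), as were 4 of 4 in granule-rich cells (-1.90), beside 11.5% and 1.27% of all genes. *Hbb-bs*, adult beta globin, had 1019 UMIs in all 109 WT cells and 1404 UMIs in 397 Cko cells (log2 Cko/WT -1.54), with log2 Cko/WT of -1.64 in immature neutrophils and -0.97 in all other cells. The rule used hemoglobin, so these values are a description. Of 10 mitochondrial genes 5 were lower (median -1.02) and 4 of 8 in granule-rich cells (-0.83), beside the same shares of all genes. *mt-Nd1*, a complex I subunit, stood at 1672 and 530 CPM (-1.66, and -1.44 in granule-rich cells), whereas *mt-Co1*, of complex IV, stood at 2614 and 2600 CPM (-0.01 and 0.11). In immature neutrophils *mt-Nd1* had a log2 Cko/WT of -0.71 and in all other cells -0.08. Transcripts of the same organelle thus differed by unequal amounts, and the cause was not tested.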

How the data were processed

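The authors processed the reads with Cell Ranger and GRCm38 (per the submitters' processing notes, version not given in the sources used here) and deposited whole-number UMI counts per gene and barcode, without normalization. Both lists of genes hold only genes with 4 or more UMIs in some cell, and a gene missing from a list was not given a level. Here, cells were chosen by the limits given above, UMIs were summed per library and scaled to CPM, and genes listed in both libraries with at least 100 UMIs were compared at 2-fold. Intervals were exact Poisson, binomial (Clopper-Pearson) or conditional ones and cover counting error only. The code for the ratios was run on simulated independent Poisson counts. These leave out the clumping of UMIs in single cells, so they cannot show that the intervals hold for these data. Doublets were called with Scrublet (scanpy 1.11.5, expected rate 5%) and kept. Cells with B cell markers had at least 3 of 6. Cells were thinned to 3000 UMIs for shares, leaving out 1 cell of those compared. Alternatives changed each limit, the totals, the weights of cells and the UMI minimum, and those marked as added were chosen after seeing the data. Named genes were the markers and rule genes, up to 4 members of each list with the most UMIs and those past 2-fold, the 12 highest and 12 lowest Cko/WT ratios seen in at least 20 cells, and the 10 highest and lowest mature over immature ratios. *Plaur*, *Id1*, *Ccl5* and the genes listed in 1 library only lie outside these and were chosen after their values were seen. The members and lists were chosen with earlier results of these data known. Computation used scipy 1.17.1 and numpy 2.4.6 under Python 3.11.15, with pandas 2.3.3 for tables and matplotlib 3.10.9 for plots.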

Additional observations from a re-analysis of the deposited data

Results flagged for a closer look

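Signals were present in genes that were listed in only 1 of the libraries and so entered no comparison. *Xist*, the RNA of the inactive X chromosome, stood at 306.9 CPM in Cko mature neutrophils (663 UMIs in 230 of 430 cells) and was not listed in the WT library. *Eif2s3y*, a Y-linked gene, stood at 64.9 CPM in WT mature neutrophils (35 UMIs in 27 of 109 cells) and was not listed in the Cko library. With 1 mouse for each genotype, the genotype and the sex-linked difference cannot be told apart in any value of the report.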

How the results depend on the processing

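In the alternatives described here, no named value past 2-fold reversed its direction. Single bins, and granule-rich cells without their top cell, were not among these alternatives. In the middle bin the *Stfa* family's ratio was 0.866, and that of *Elane* was 16.4, from 2 and 205 UMIs. In granule-rich cells without the top cell of each library, *Prtn3* stood at 19.2 CPM in the WT and 29.8 CPM in the Cko. Of named genes within 2-fold, *Ly6g* (-0.08 to 0.82), *Camp*, *S100a8*, *S100a9*, *Mbtps1*, *Cxcr2* and *2010005H15Rik* (-0.55 to 2.77) changed sign in some alternative. The log2 Cko/WT share of mature cells was 2.76, and 2.33 with no hemoglobin limit, 3.09 with a granule limit of 30% (added after seeing the data), 1.96 among cells with hemoglobin under 1% and 1.34 among cells past the granule limit. A hemoglobin limit of 0.1% left 0 WT and 186 Cko cells, and 6.73 is then a bound with 3 counts in place of 0, with no gene compared. The 36 higher genes became 21 (granule limit 10%), 97 (no hemoglobin limit), 22 (granule limit 30%), 69 (totals without granule, late, *Stfa*, hemoglobin and mitochondrial genes, median of all genes 0.06), 58 (ratios centred), 84 (30 UMIs), 13 (300 UMIs) and 137 (1.5-fold). The 218 lower genes became, in that order, 107, 255, 18, 125, 144, 680, 79 and 503, and 372 with a granule limit of 2.5% and 85 with equal weight for the 3 bins. Limits on the cells also changed how many genes were compared, from 1896 to 1415 with a granule limit of 30%. The *Stfa* family's log2 Cko/WT of 1.36 became 1.20 and 1.65 with granule limits of 10% and 2.5%, 1.504 and 1.02 with *Retnlg* and *Mmp8* limits of 0.05% and 0.2%, 1.59 with no hemoglobin limit, 1.15 with a granule limit of 30%, 1.59 with those totals, 1.53 centred, 1.16 as a mean over cells, 1.09 over the 3 bins and 1.74 without the top cell of each library (added after seeing the data). Of 27 named genes past 2-fold, 19 stayed past it in every alternative run, among them *Cap1* (2.46 to 3.08), *Stfa2* (2.10 to 2.88) and *Slpi* (1.12 to 1.85), and *Wfdc17* (0.40 to 2.68), *Stfa2l1* (0.65 to 1.67), *Orm1*, *Ttc32*, *Usp5*, *Pdia6*, *Il1b* (-2.26 to -0.68) and *Gm5416* (-1.20 to -0.20) did not. No paired analysis was possible because each genotype had 1 library. With 1 library each, replicate error was not measured, and the 109 WT cells limit the precision of every ratio.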

Other observations

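Receptor genes that neutrophils use to sense growth factor and bacterial peptides were listed in 1 library each, so they could not be compared. *Fpr1*, a formyl peptide receptor, stood at 134.7 CPM in Cko mature neutrophils (291 UMIs in 185 of 430 cells) and *Pilrb2* at 121 CPM (262 UMIs in 187 cells), and neither was listed in the WT library. *Csf3r*, the receptor of the neutrophil growth factor G-CSF, stood at 61.2 CPM in WT mature neutrophils (33 UMIs in 30 of 109 cells) and was not listed in the Cko library. A gene entered a library's list only with at least 4 UMIs in 1 cell, so these listings are not evidence of absence in the other library.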
